A study of Mus musculus with 13 samples.

Results

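The Sox genes encode transcription factors that bind DNA through a shared high-mobility-group box, and 10 of them that serve in differentiated lineages were examined: Sox1, Sox3, Sox14 and Sox21 of group B, Sox8, Sox9 and Sox10 of group E, and Sox7, Sox17 and Sox18 of group F. They were chosen by name and group, with earlier results of these data known, and Sox2, a pluripotency factor of group B, was left out. Of the 10, 9 are among the 22367 annotated protein-coding genes that served as background, and Sox1, which has no record in that annotation, was placed by its promoter sequence. For each gene the peaks of 5 lists were collected over a promoter window, which took in 1 kb up and 1 kb down from where transcription starts, and over the gene body.

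The lists came from ChIP-seq in mouse embryonic stem cells (ESCs) of the 129/1 XY ES cell line, all wild-type, grown undifferentiated in serum with LIF on gelatine. AEBP2 was precipitated with an antibody to the endogenous protein in 2 replicates. The label of the second antibody reads anti-H3K27, and the study's text names the mark as H3K27me3; it also has 2 replicates. FS2-AEBP2, AEBP2 with a Flag and Strep II tag, has 1 sample. For its proteomics the study expressed this tagged protein from the plasmid pCAG in E14 ESCs, and the sources used here do not state whether the ChIP sample came from those cells. Nothing states that the replicates were separate cultures. AEBP2 knockout and SUZ12 libraries were not analysed here.

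AEBP2 is a zinc finger cofactor of Polycomb repressive complex 2 (PRC2), which methylates lysine 27 of histone H3. In ESCs PRC2 is known to sit over CpG islands, stretches rich in unmethylated CpG, of developmental regulators that are silent until differentiation. Group B genes are known for neural progenitors and neurons, group E for neural crest, glia, cartilage and testis, and group F for endoderm and endothelium.

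The promoter sequences below show the CpG density around the start sites of 4 members. They run from 250 bases before to 50 after the RefSeq start site, 5′ to 3′, with every CpG in capitals. For Sox1, Sox21 and Sox8 this is the start site used for the peaks, and for Sox14 the RefSeq start lies downstream of the annotated one, 99776663, that was used for them. They are RefSeq sequences of build GRCm38.p6, and each matched mm9 exactly once, at chr8:12395269-12395568 on the plus strand for Sox1 and on the minus strand at chr9:99776540-99776839 for Sox14, chr14:118636203-118636502 for Sox21 and chr17:25707582-25707881 for Sox8. Sox14 and Sox21 are shown as the group B genes whose windows were most and least covered by peaks, Sox8 as the least covered gene of group E, and Sox1 because its start site was placed with this sequence. Peaks covered all of the Sox1 sequence in every list but H3K27me3 replicate 2, which covered none of it, and all of the Sox14 and Sox21 sequences except in FS2-AEBP2, which covered 81.3% and 23.0%. The Sox8 sequence was covered by H3K27me3 replicate 1 alone. Sox3, Sox9, Sox10, Sox7, Sox17 and Sox18 had no entry in the RefSeq table.
Sox1: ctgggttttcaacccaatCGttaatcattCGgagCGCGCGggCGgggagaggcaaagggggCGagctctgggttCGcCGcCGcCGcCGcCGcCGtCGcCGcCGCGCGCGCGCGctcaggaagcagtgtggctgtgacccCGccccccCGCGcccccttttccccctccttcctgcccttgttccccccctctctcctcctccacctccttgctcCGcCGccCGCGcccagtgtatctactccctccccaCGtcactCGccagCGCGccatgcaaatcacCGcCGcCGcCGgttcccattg
Sox14: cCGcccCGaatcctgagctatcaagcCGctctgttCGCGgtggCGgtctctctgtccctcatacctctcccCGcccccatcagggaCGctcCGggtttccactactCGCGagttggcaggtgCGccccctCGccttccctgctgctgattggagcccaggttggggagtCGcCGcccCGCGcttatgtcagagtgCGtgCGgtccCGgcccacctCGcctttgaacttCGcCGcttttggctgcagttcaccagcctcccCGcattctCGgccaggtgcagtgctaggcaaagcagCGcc
Sox21: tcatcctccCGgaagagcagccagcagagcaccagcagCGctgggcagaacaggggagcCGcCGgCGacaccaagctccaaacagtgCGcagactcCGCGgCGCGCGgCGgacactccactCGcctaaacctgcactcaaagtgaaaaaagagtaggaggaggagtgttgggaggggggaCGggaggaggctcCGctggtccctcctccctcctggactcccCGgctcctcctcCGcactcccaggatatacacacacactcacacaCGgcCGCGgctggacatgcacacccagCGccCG
Sox8: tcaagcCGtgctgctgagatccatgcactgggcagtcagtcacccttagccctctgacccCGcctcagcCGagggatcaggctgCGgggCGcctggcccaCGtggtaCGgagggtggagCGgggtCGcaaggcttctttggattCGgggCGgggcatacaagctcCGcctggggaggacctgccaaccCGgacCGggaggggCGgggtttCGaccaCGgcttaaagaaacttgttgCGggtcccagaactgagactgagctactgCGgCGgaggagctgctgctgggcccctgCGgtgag

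The Sox1 sequence held 37 CpG in 300 bases and a GC content of 70.7%, against 26 and 66.0% for Sox14, 22 and 65.7% for Sox21 and 21 and 66.3% for Sox8. At the annotated start site of Sox14, the same length of sequence held 22 CpG and a GC content of 61.0%. None of the 4 sequences held the TATA box TATAAA or the Sox core AACAAT on either strand, letters that 13.6% and 10.7% of the 32841 RefSeq promoters of this length held. The CCAAT box stood in 2 of them (Sox1 and Sox14; 37.4% of promoters) and the GC box GGGCGG in 3 (Sox1, Sox14 and Sox8; 35.7%).

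The lists held between 2877 and 14112 peaks, and read counts and depth are unknown for them. Their scores have no stated scale, so a score was ranked within its own list, as the percent of the list's peaks that scored lower, with ties at their mid-rank. The members are not replicates and each target has at most 2 lists, so no test was made; member counts stand beside the share of all promoters. Of 6 pluripotency genes whose promoters are active in ESCs (Pou5f1, Nanog, Sox2, Klf4, Zfp42 and Esrrb), none had an H3K27me3 peak in both replicates, against 15.0% of all promoters. Klf4 had a peak in H3K27me3 replicate 1 and in FS2-AEBP2, and the other 5 had a peak in no list. Expression was not measured.

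All 10 lineage Sox promoters carried an H3K27me3 peak in both replicates, and 9 carried an AEBP2 peak in both, Sox8 being the exception. The H3K27me3 count of 10 stood against 17.0% of all protein-coding promoters in replicate 1, 17.7% in replicate 2 and 15.0% in both. The AEBP2 count was 9 in replicate 1, where 9.08% of all promoters had a peak, and 10 in replicate 2, where 22.3% had one; in both replicates together 8.44% of promoters had one. FS2-AEBP2 peaks lay on 10 of the promoters, against 6.53% of all. A peak in all 5 lists was found at 9 of the 10, against 4.57% of all promoters.

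These counts also stood above narrower backgrounds. Among the 3349 promoters with H3K27me3 in both replicates, 39.3% had AEBP2 in both and 38.2% had FS2-AEBP2. Each of the 10 members had a CpG-island-like region in its window, as did 54.1% of all promoters, 12095 in number. Of these 12095 promoters, 15.9% and 39.0% had a peak in the AEBP2 replicates, 11.3% in FS2-AEBP2, 24.2% and 27.3% in the H3K27me3 replicates and 7.94% in all 5 lists. No member lacked a peak in every list, as 68.5% of all promoters did. By group, all 5 lists were shared by 4 of 4 genes in group B, 2 of 3 in group E and 3 of 3 in group F. Sox2, left out of group B, had a peak in no list.

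The peaks also reached the start sites themselves. The start site lay inside a peak at 8 members in AEBP2 replicate 1 (6.43% of all promoters), 9 in AEBP2 replicate 2 (17.1%), 8 in FS2-AEBP2 (3.24%), 10 in H3K27me3 replicate 1 (13.4%) and 8 in H3K27me3 replicate 2 (11.4%). The whole window was covered at 3 members in AEBP2 replicate 1 (1.37% of all promoters), 5 in AEBP2 replicate 2 (2.56%), 2 in FS2-AEBP2 (1.18%), 10 in H3K27me3 replicate 1 (9.24%) and 8 in H3K27me3 replicate 2 (8.76%). Sox1 and Sox9 were the 2 genes with a window wholly covered in all 3 AEBP2 lists. Sox8 was the gene whose start site lay in no AEBP2 peak.

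**Figure D1:**
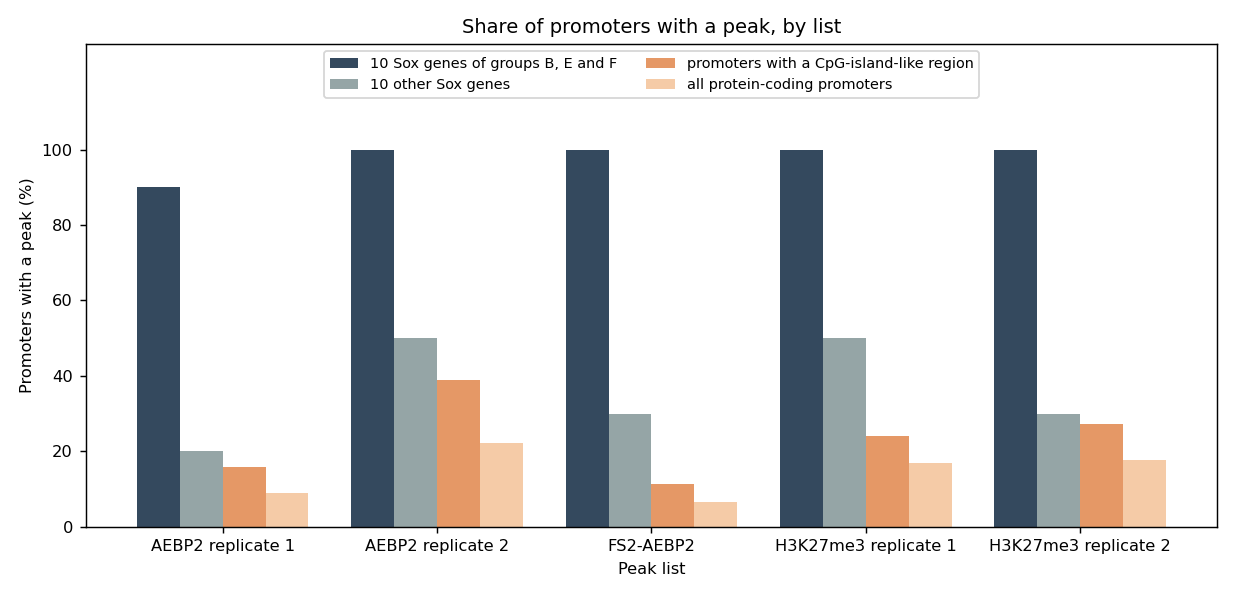
Percent of promoters with a peak (vertical axis) in each of the 5 lists, for the 10 lineage Sox genes, the other 10 Sox genes, the 12095 promoters with a CpG-island-like region and all 22367 protein-coding promoters. The lineage Sox bars stand at 90% or 100%, and the other Sox genes reach at most 50% in any list.

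Over the gene bodies, which could be placed for 9 of the genes, a peak was present in 8 in AEBP2 replicate 1 (10.3% of all gene bodies) and in 9 in AEBP2 replicate 2 (24.9%), FS2-AEBP2 (7.69%), H3K27me3 replicate 1 (20.8%) and H3K27me3 replicate 2 (20.2%). Each body begins at the start site, so these calls largely repeat the promoter calls. The mark covered some bodies from end to end. H3K27me3 covered the whole body of 5 genes in replicate 1 and 6 in replicate 2, the shared 5 being Sox3, Sox14, Sox9, Sox17 and Sox18. The share of all gene bodies wholly covered was not computed, and whole coverage depends on body length, so these counts have no background beside them. Sox14, whose body of 2020 bp was the second shortest after Sox18, was wholly covered in all 5 lists. The longest body, the 9578 bp of Sox10, was covered by AEBP2 over 21.3% and 26.4% in replicates 1 and 2, and by H3K27me3 over 79.5% and 42.1%.

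**Figure D2:**
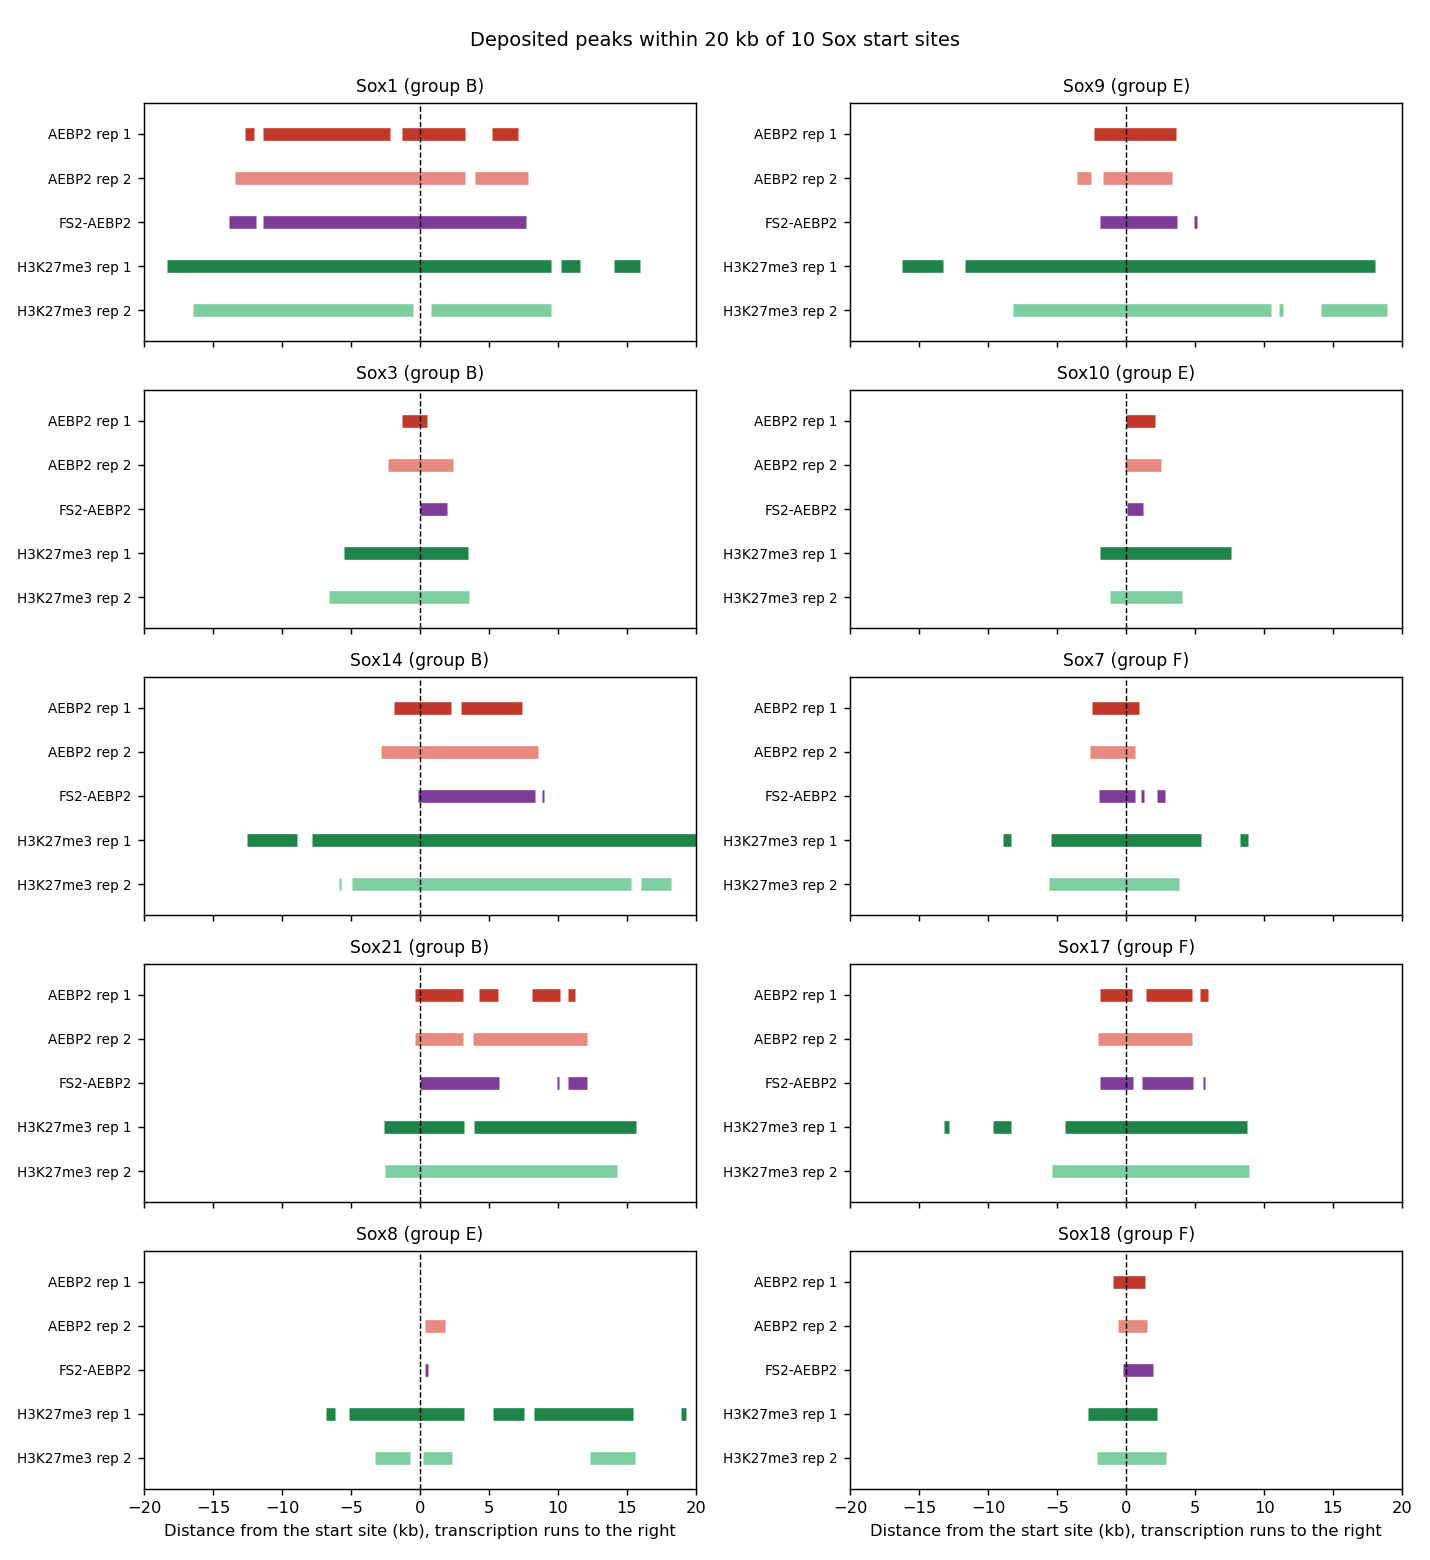
Peaks of the 5 lists within 20 kb of the start site of each lineage Sox gene, drawn in the direction of transcription, with distance from the start site in kb. H3K27me3 blocks extend beyond the AEBP2 blocks at most genes, and Sox8 has no block for AEBP2 replicate 1.

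The members' promoter peaks were longer than those of a typical promoter with a peak. The median of the longest peak was 3377 bp in AEBP2 replicate 1 (1244 bp over all promoters with a peak), 4093 bp in AEBP2 replicate 2 (872 bp), 2513 bp in FS2-AEBP2 (1409 bp), 10210 bp in H3K27me3 replicate 1 (4864 bp) and 12223 bp in H3K27me3 replicate 2 (3970 bp). The FS2-AEBP2 median depended on how peaks were taken, and was 5206 bp with peaks within 1 kb joined and 4108 bp with only peaks at or above the median score of the list. Peaks longer than the median over all promoters with a peak were found in 9 of 9 and 10 of 10 members for AEBP2, in 8 of 10 for FS2-AEBP2, and in 10 and 9 of 10 for H3K27me3. The score ranks had medians of 70.1 and 88.2 in the AEBP2 replicates (50.9 and 54.8 over all promoters with a peak), 83.5 in FS2-AEBP2 (59.5), and 92.9 and 91.3 in the H3K27me3 replicates (80.5 and 73.1). Ranks in AEBP2 replicate 2 and in FS2-AEBP2 spread most widely, from 5.05 to 97.8 and from 13.1 to 97.0, with Sox8 lowest in each. The other Sox genes with a peak (2 to 5 per list) had median lengths of 1773, 1946, 1520, 2447 and 6388 bp in the order above. These exceeded the typical promoter in all lists but H3K27me3 replicate 1. Their median ranks of 42.6, 60.4, 31.4, 85.9 and 76.0 did so in AEBP2 replicate 2 and both H3K27me3 replicates. Promoters with a peak in all 5 lists, the state of 9 members, were not used as a background here.

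**Figure D3:**
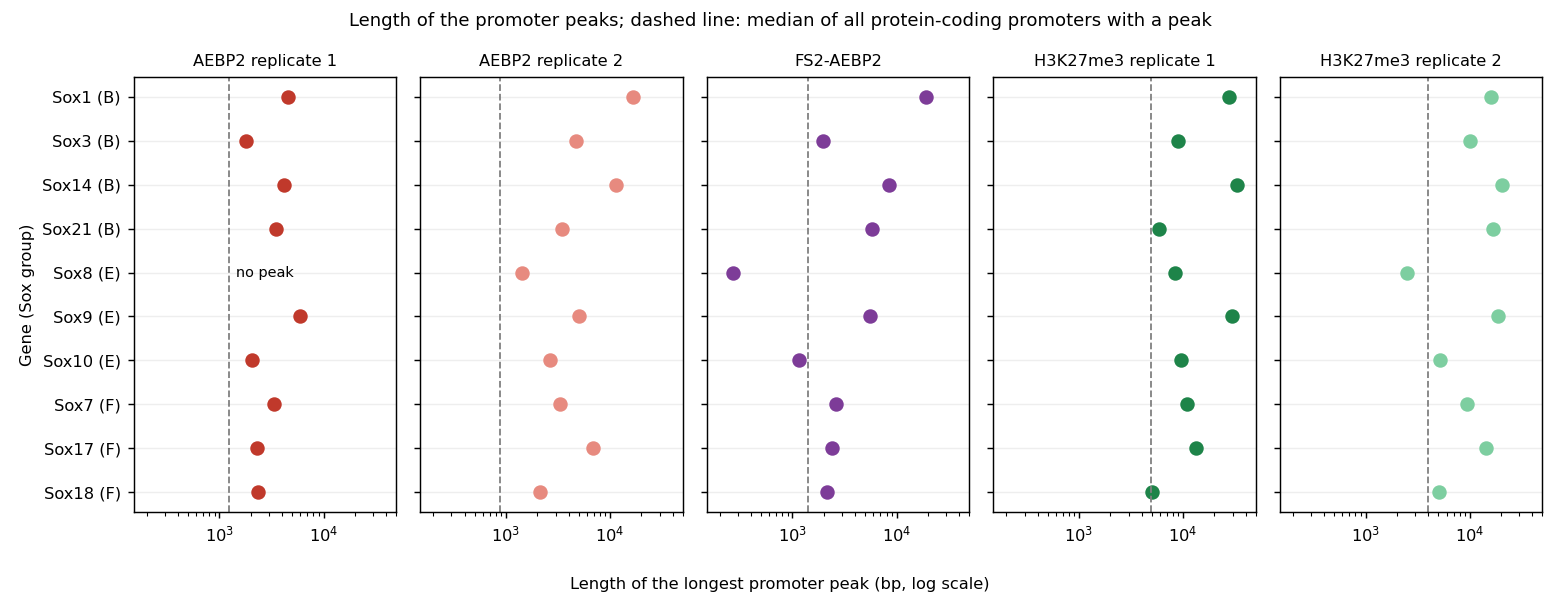
Length in bp, on a log axis, of the longest promoter peak of each lineage Sox gene in each of the 5 lists, with a dashed line at the median over all promoters with a peak. H3K27me3 peaks are the longest at most genes, and the single FS2-AEBP2 peak of Sox8, 267 bp, is the shortest point.

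Summed over the 5 lists, coverage of the 10005 bp of window was complete at Sox9 and followed at Sox7 (9202 bp), Sox14 (9125 bp), Sox17 (8923 bp), Sox18 (8829 bp), Sox1 (8653 bp), Sox3 (8566 bp), Sox21 (7750 bp), Sox10 (7065 bp) and Sox8 (3961 bp). The steps between the neighbours from Sox7 to Sox3 were each smaller than the difference between the AEBP2 replicates at Sox3, 1528 against 2001 bp. The order of adjacent genes there is thus not a difference beyond that spread. It is the spread of a single gene and target, and does not cover genes further apart in the order. Sox8 stood apart from the rest by the widest step.

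Group B opened with Sox1, an early marker of neural progenitors. Its longest promoter peak measured 4610 bp in AEBP2 replicate 1, 16689 bp in AEBP2 replicate 2, 19084 bp in FS2-AEBP2, 27849 bp in H3K27me3 replicate 1 and 15913 bp in H3K27me3 replicate 2. The FS2-AEBP2 peak was the longest of that list among the members, and the AEBP2 lengths differed between replicates by more than 3-fold. In AEBP2 replicate 1 the same stretch was split, with a second peak further upstream that the other AEBP2 lists joined to the first. The scores of Sox1 ranked at 86.1 and 96.3 for AEBP2, 97.0 for FS2-AEBP2, and 98.1 and 98.7 for H3K27me3.

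The start site of Sox1 lay in a gap of the mark in replicate 2. In H3K27me3 replicate 2 a stretch of 1352 bp at chr8:12394992-12396343 had no peak, with peaks on both sides, whereas replicate 1 covered it. All 3 AEBP2 lists covered this gap. A gap of this kind was found at 7.36% of the 3968 promoters with a peak in H3K27me3 replicate 2 and at 2.02% of those in replicate 1. The GC content of the Sox1 promoter exceeded that of 90.0% of all promoters. This share was 96.7% at Sox7, which had no such gap, and 81.6% at Sox8, which had one. A link between GC content and the gap was not tested.

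Sox14, which serves in subsets of interneurons, had the longest H3K27me3 peaks of the members in both replicates, 32554 and 20296 bp. Their scores ranked 155 of 14112 and 22 of 9275, the highest among the members in each replicate. Its AEBP2 peaks measured 4133 and 11440 bp and its FS2-AEBP2 peak 8488 bp. Most of the H3K27me3 peak of replicate 1 lay over and beyond the gene, 24720 bp downstream of the start site against 7833 bp upstream.

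Sox21, which is known to counteract neural progenitor factors of its group, showed a close match of the AEBP2 replicates in peak extent at its start site. The peaks measured 3498 and 3457 bp and shared a fraction of 0.988 of their joint length, the highest of the members. The scores of these AEBP2 peaks were less alike, at ranks 65.1 and 97.2. Its H3K27me3 peaks overlapped least among the members, 5816 bp in replicate 1 and 16844 bp in replicate 2, with a shared fraction of 0.339. Replicate 1 had a further peak from 3877 to 15667 bp downstream, so the stretch was a single peak in replicate 2 and 2 peaks in replicate 1. FS2-AEBP2 covered 5745 bp.

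Sox3, an X-linked gene of neural progenitors, had the weakest AEBP2 call of group B. Its peak measured 1804 bp in AEBP2 replicate 1 and ranked at 11.9, and 4729 bp in replicate 2, ranked at 69.3. The FS2-AEBP2 peak measured 1975 bp at rank 45.6. The H3K27me3 peaks were of like length, 9015 and 10168 bp, at ranks 84.3 and 62.0, so that the replicate 2 peak was below the median rank of 73.1 over all promoters with a peak.

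In group E, Sox9, the regulator of cartilage and of testis formation, was the most completely covered gene. All 5 lists covered its whole window. The AEBP2 peaks measured 5916 and 5003 bp, the FS2-AEBP2 peak 5589 bp, and the H3K27me3 peaks 29692 and 18738 bp. The 3 AEBP2 lengths were closer to each other than at Sox1 or Sox14. The Sox9 scores ranked highest among the members in AEBP2 replicate 2 (97.8) and shared the highest rank with Sox1 in replicate 1 (86.1).

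Sox10, a factor of neural crest and glia, had its AEBP2 on the gene side of the start site. The peaks measured 2038 and 2637 bp in the AEBP2 replicates and 1143 bp in FS2-AEBP2, and the start site itself lay inside the AEBP2 peak of replicate 2 only. The stretch in all 5 lists ran from 38 to 1180 bp downstream, over a CpG-island-like region of 1190 bp that does not hold the start site. The promoter had 7 CpG in 300 bases, fewest of the members. H3K27me3 covered the start site in both replicates, with peaks of 9541 and 5239 bp.

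Sox8, a group E gene that acts beside Sox9 and Sox10, had the least AEBP2. AEBP2 replicate 1 had no peak at its promoter or body, and the nearest lay 73491 bp away. AEBP2 replicate 2 had a peak of 1431 bp that ranked 6265 of 6779, and FS2-AEBP2 one of 267 bp that ranked 2398 of 2884, each near the bottom of its list. Both peaks lay in the gene, downstream of the start site.

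H3K27me3 was nevertheless called at Sox8 in both replicates. Replicate 1 had 1 peak of 8358 bp at rank 88.5, and replicate 2 had 2 peaks, the longer of 2514 bp and the higher-scoring at rank 76.0. Between them lay a gap of 943 bp over the start site at chr17:25707422-25708364. Sox8 and Sox1 were the members with such a gap, and no AEBP2 peak touched the gap at Sox8, whereas all 3 AEBP2 lists covered that at Sox1.

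Group F was the most even of the 3 groups in window coverage. Sox7, known in primitive endoderm and endothelium, had peaks of 3377 and 3289 bp in the AEBP2 replicates, 2627 bp in FS2-AEBP2, and 10878 and 9407 bp for H3K27me3. Its ranks were 70.1 and 83.2, 77.5, and 97.8 and 93.8. The AEBP2 peaks lay mostly upstream of the start site, 2482 against 894 bp in replicate 1.

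Sox17, which directs definitive endoderm, was the gene whose AEBP2 rank differed most between replicates. The peak measured 2285 bp at rank 21.5 in replicate 1 and 6849 bp at rank 95.5 in replicate 2, and FS2-AEBP2 gave 2399 bp at rank 89.5. Replicate 1 had a separate peak from 1427 to 4775 bp downstream, over ground that replicate 2 joined into the promoter peak. The H3K27me3 replicates overlapped most at Sox17, with peaks of 13209 and 14278 bp and a shared fraction of 0.925, the highest of the members.

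Sox18, a factor of blood and lymphatic endothelium, had the shortest body, 1805 bp. Its peaks measured 2337 and 2110 bp for AEBP2, 2160 bp for FS2-AEBP2, and 5013 and 5037 bp for H3K27me3. The H3K27me3 lengths were nearer to each other than at any other member.

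**Figure D4:**
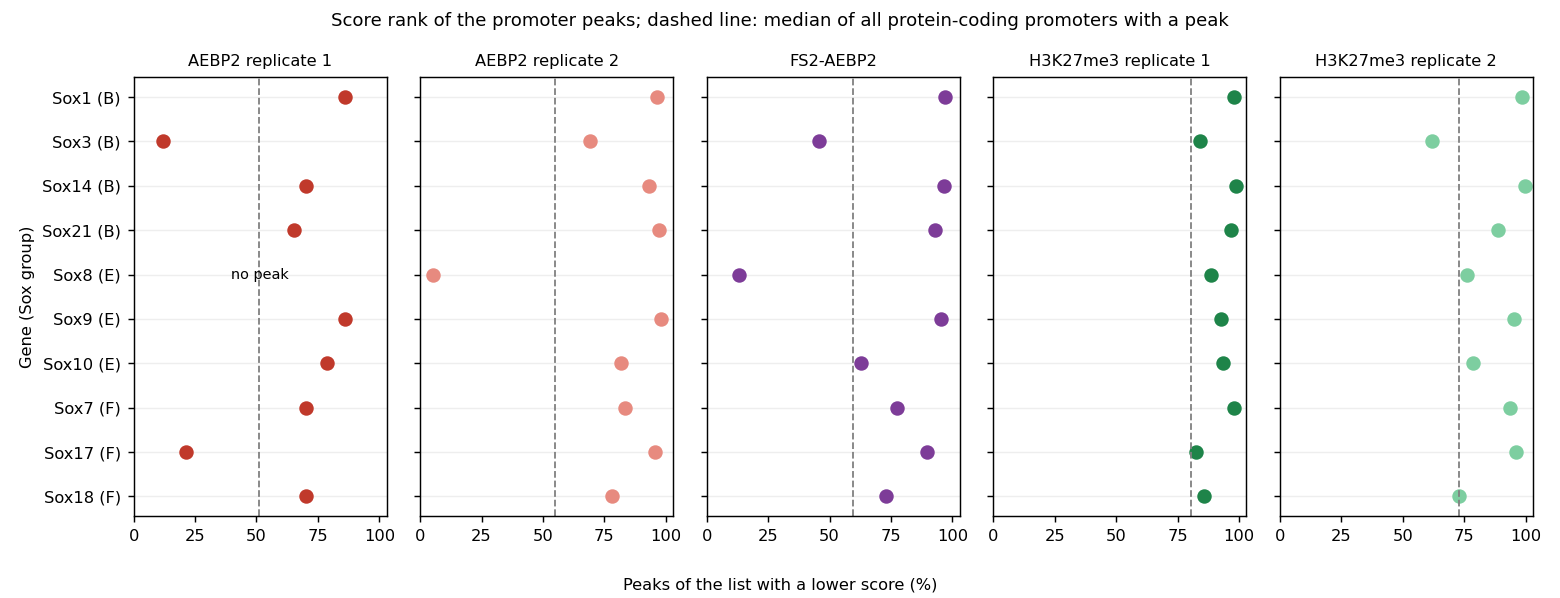
Score rank of the highest-scoring promoter peak of each lineage Sox gene, as the percent of peaks in the same list that scored lower, with the median over all promoters with a peak. Sox14 is highest in both H3K27me3 replicates, and Sox8 and Sox3 hold the lowest AEBP2 ranks.

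The position of FS2-AEBP2 around the start site differed among the members. Of the 1000 bp on either side, the tagged protein covered 34 bp upstream and all downstream at Sox3, 120 bp and all at Sox14, 19 bp and all at Sox21, and 219 bp and all at Sox18. At Sox10 and Sox8 it covered none of the upstream side and 963 and 267 bp of the downstream side. Sox7 and Sox17 showed the reverse, with all of the upstream side and 634 and 503 bp downstream, and Sox1 and Sox9 were covered on both sides. More downstream than upstream was thus found in 6 of 10, and more upstream in 2. Over all 1460 promoters with an FS2-AEBP2 peak these shares were 64.6% and 17.4%, near those of the members.

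The endogenous AEBP2 lists covered more of the upstream side at some of these genes and not at others. At Sox3, both replicates covered all of the upstream side, and at Sox14 both covered the whole window. At Sox21 the replicates reached upstream by 368 and 358 bp, against 19 bp for FS2-AEBP2, and at Sox18 by 988 and 617 bp, against 219 bp. At Sox10 replicate 1 covered none of the upstream side, as FS2-AEBP2 did, and replicate 2 covered 110 bp. At Sox8 replicate 2 covered none of it. Over all promoters with a peak, more was covered downstream at 63.5% and 65.8% in the AEBP2 replicates, near the 64.6% of FS2-AEBP2, and more upstream at 21.3% and 22.7%. Among the members, more was covered downstream at 3 of 9 and 4 of 10, below those shares. More was covered upstream at 3 and 1, and both sides were covered equally at 3 and 5. At each of these equal members the whole window was covered, so neither side could exceed the other. The lower downstream counts therefore do not show a weaker downstream placement. The FS2-AEBP2 sample and the endogenous samples differ in antibody, protocol and tag, and possibly in the cells and in expression from a plasmid, and these cannot be told apart here.

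**Figure D5:**
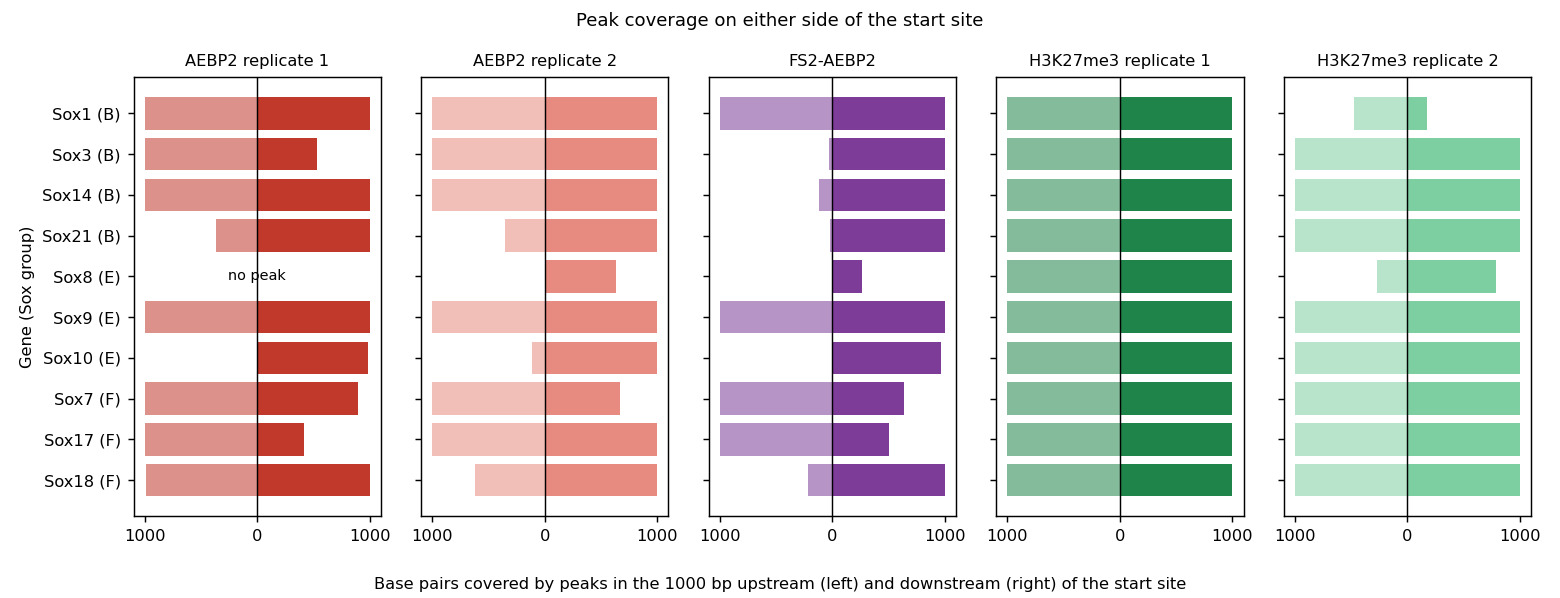
Base pairs of the 1000 bp upstream and the 1000 bp downstream of the start site covered by peaks of each list, for each lineage Sox gene, with upstream bars to the left and downstream bars to the right. FS2-AEBP2 covers little upstream sequence at Sox3, Sox14, Sox21, Sox18, Sox10 and Sox8.

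AEBP2 lay inside H3K27me3 almost throughout these loci. Of the base pairs of the members' AEBP2 promoter peaks, 100% and 95.5% (replicate 1), 100% and 97.7% (replicate 2) and 98.6% and 97.3% (FS2-AEBP2) fell inside peaks of H3K27me3 replicates 1 and 2. Over all peaks of the lists the shares were 91.7% and 91.6%, 79.5% and 77.2%, and 95.3% and 94.8%. Those shares take in peaks away from promoters and at promoters without the mark, whereas every member carried the mark in both replicates. The comparison is therefore not like for like. The AEBP2 outside the mark came from 2 places, the Sox1 gap and a stretch of 683 bp in the FS2-AEBP2 peak of Sox21 that lay between the 2 H3K27me3 peaks of replicate 1. Both endogenous AEBP2 replicates also had a break between peaks at that point downstream of Sox21.

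The stretch present in all 5 lists was longest at Sox9, 5003 bp, and measured 3250 bp at Sox1 in 2 pieces, 3118 bp at Sox21, 2627 bp at Sox7, 2388 bp at Sox14, 2285 bp at Sox17, 1568 bp at Sox18, 1143 bp at Sox10 and 562 bp at Sox3. Sox8 had none. At Sox17 it ran from 1869 bp upstream to 415 bp downstream, and it took in an island-like region that ends upstream of the start site.

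CpG-island-like regions within 10 kb of the start sites numbered 22, of which 20 had a peak in each H3K27me3 replicate, 18 and 19 in the AEBP2 replicates and 19 in FS2-AEBP2. Only 2 had no peak in any list. These lay at the start sites of the neighbouring genes Lmf1, 8488 bp from Sox8, and Tcea2, 8670 bp from Sox18. At the Sox promoters themselves, the longest island-like region was wholly covered at 10 genes in H3K27me3 replicate 1 and at 8 in replicate 2, at 6 in each AEBP2 replicate and at 3 in FS2-AEBP2. The shares of all such regions with a peak or wholly covered were not computed, so these counts have no background beside them. At Sox1, Sox14, Sox9 and Sox17 the further regions lay inside the promoter peak of H3K27me3 replicate 1, so they partly repeat the promoter calls.

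The neighbouring genes stood near the background. Of the 20 nearest protein-coding start sites on either side, 15 had no promoter peak in any list, against 68.5% of all promoters, and 3 had one in both H3K27me3 replicates, against 15.0%: Gm5607, Sstr5 and Sstr2. Gm5607, whose start lies 9748 bp from that of Sox1, was the only one to share a member's peak. Sstr5 lies 73433 bp from Sox8 and Sstr2 837118 bp from Sox9.

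The other 10 Sox genes had fewer peaks than the members, 2 and 5 in the AEBP2 replicates, 3 in FS2-AEBP2, and 5 and 3 in the H3K27me3 replicates. Each count still stood above the share of all promoters, which was 9.08% and 22.3%, 6.53%, and 17.0% and 17.7% in the same order. Sox6 was the only one with a peak in all 5 lists. Sry, Sox2, Sox12, Sox13 and Sox15 had a peak in none, as did 68.5% of all promoters. No list has any peak on chromosome Y, where Sry lies. At Sox2 the nearest H3K27me3 peak lay 452490 bp away in replicate 1 and 4778 bp in replicate 2.

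Regulators of the same lineages were covered to differing extents. All 12 genes of a neural progenitor list, among them Pax6 and Olig2, had a peak in every list, against 4.57% of all promoters. Of 12 neural crest genes, 11 had H3K27me3 in both replicates and 8 had AEBP2 in both, and of 12 endoderm and endothelium genes 10 and 7 did. Over all promoters these shares were 15.0% and 8.44%. H3K27me3 in both replicates without AEBP2 in both, the state of Sox8, was thus found in the latter lists too, and it was the state of most promoters with H3K27me3 in both replicates, of which 39.3% had AEBP2 in both.

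Among 1014 genes outside the Sox family with a peak in all 5 lists, those whose 5 score ranks came nearest to the median ranks of the 9 members with a peak in all 5 lists, Sox8 left out (70.1, 93.3, 89.5, 93.3 and 93.8) were Ebf2, Wnt10b and Tesc. Their summed differences over the 5 lists were 10.9, 11.6 and 12.1 points of rank.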

How the data were processed

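The authors deposited broad peak lists in 12-column BED layout. Per the labels and the submitters' processing notes, these lists were made with Bowtie, SAMtools, Picard and MACS2 version 2.0.10.2 on mm9; parameters are not given in the sources used here. The deposited score in column 5 has no stated scale and was ranked within its own list. Starts and ends (deposited values of another kind) gave lengths and overlaps. These are the outer extents of broad peaks, and the shorter blocks listed inside each peak were not used for them. Inputs are control libraries without lists here. Of the peaks, 2877 of 2879 (AEBP2 replicate 1), 6779 of 6779, 2884 of 2884, 14112 of 14112 and 9275 of 9288 lay on chromosomes 1 to 19, X and Y and were used.

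Start sites were the 5′ ends of GENCODE gene records. A peak counted if it overlapped the window by at least 1 bp. Sox1 has no record there and was placed by its RefSeq promoter, giving a start site at 12395519 and no gene body. CpG-island-like regions were 500 bp windows of at least 55% GC whose CpG count reached 0.65 of that expected, merged where they touched. The replicate numbers in the H3K27me3 file names and in the labels run opposite, so which is replicate 1 is uncertain; the labels were followed. The genes and lists named were chosen with earlier results of these data known. The rule for named genes took all 10 members, the other Sox genes, neighbours, lineage lists and the 3 most alike genes; it also asked for the promoters of greatest and least coverage in each group, of which the RefSeq table held Sox14, Sox21 and Sox8, and Sox1 was added after its values were seen. Python 3.11.15, numpy 2.4.6 and matplotlib 3.10.9 were used. Overlap counting was tested on simulated peaks. The alternatives tried are given in the closing section.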

Additional observations from a re-analysis of the deposited data

How the results depend on the processing

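A count was called the same within 1.5 times, and a median within the standard deviation of its target's 2 replicates (endogenous AEBP2 for FS2-AEBP2). By this rule, of 152 alternative values for the members 137 stayed the same and 15 moved, and none reversed. No count of members moved by over 1.5 times, but counts changed within that bound. Members with a peak in all 5 lists fell from 9 to 7 with peaks at or above the median score. They fell to 8 with a promoter of 500 bp on either side or an overlap of at least 500 bp. The FS2-AEBP2 median rank rose from 83.5 to 91.3 with the first of these. The median length moved to 10168 bp in H3K27me3 replicate 2 with promoters of 500 bp on either side, with an overlap of at least 500 bp, or without Sox1 (an alternative chosen after seeing the data), and its median rank to 88.8 in the same settings. Joining peaks within 1 kb gave 5785 bp in AEBP2 replicate 2, 5206 bp in FS2-AEBP2 and 12044 bp in H3K27me3 replicate 1, and a median rank of 90.1 in H3K27me3 replicate 2. Keeping peaks at or above the list's median score gave 4729 bp in AEBP2 replicate 2 and 4108 bp in FS2-AEBP2, and a promoter of 2.5 kb gave 3180 bp in FS2-AEBP2. Without Sox1 the median was 2857 bp in AEBP2 replicate 1 and 3457 bp in AEBP2 replicate 2. The cause was not tested. Leaving out a replicate gave 9 to 10 members with AEBP2, 10 with H3K27me3 and 9 to 10 in all lists; the 9 rests on AEBP2 replicate 1, which has no Sox8 peak. A score at or above the median removed Sox3 and Sox17 in AEBP2 replicate 1, Sox8 in AEBP2 replicate 2, and Sox3 and Sox8 in FS2-AEBP2. An overlap of 500 bp removed Sox8 in FS2-AEBP2 and Sox1 in H3K27me3 replicate 2. No paired analysis was possible because the results come from no test. Depth is unknown, so an absent peak is not an absent signal.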
